A study of Homo sapiens with 6 samples.

Results

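GC-rich simple repeats that carry a CpG site were followed across 3 culture states of the established human embryonic stem cell line H9. A simple repeat is a short unit copied head to tail, and the authors' tables name each kind by its unit, as in (CCCCGG)n. The entries described here have a unit of at least 4 bases, a GC share of at least 50%, and a C directly followed by a G once the unit is written 2 times in a row, so that a CpG formed only at the junction of neighbouring copies counts. Within the deposited normalised table, which holds entries with at least 10 reads, these rules used names alone. They take 1109 of the 7383 entries in the deposited normalised table and 1109 of its 6123 simple repeats. A further 645 names of the same form occur only in the count table, where none has more than 9 reads over the 6 libraries.

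The primed cells were kept in mTeSR and the naive-like cells in RSeT, a commercial medium. The third group, RSeT+DT, was grown in RSeT with 10 nM DZNep and 5 nM TSA and collected after 48 h. Each group has 2 libraries of stranded total RNA, and all 6 come from the same line. Whether the 2 libraries of a group were grown separately is not stated, and the p-values then speak only of how these libraries vary, which may be technical variation.

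CpG is the dinucleotide that human DNA methyltransferases methylate, and unmethylated stretches rich in CpG, the CpG islands, lie at many promoters and can recruit Polycomb complexes. DZNep, 3-deazaneplanocin A, inhibits S-adenosylhomocysteine hydrolase and so lowers methyl transfer, including that by the Polycomb methyltransferase EZH2. TSA, trichostatin A, inhibits histone deacetylases. Units made of G and C form short tracts in promoters, first exons and introns, so RNA counted on such an entry can be part of a host transcript as well as a transcript of the repeat itself.

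The units on which the results turn follow, each written 2 times, 5′ to 3′, in lower case with every CpG in capitals. The first 3 were the most abundant. The next 5 include large rises in RSeT and a pair of rotations that moved apart, and the following 3 are among the large falls. The last 5 are described below for their values under DZNep and TSA. They include falls, a difference on few reads that did not pass, and a rise whose RSeT libraries disagreed.
Entry (CCCCGG)n: cccCGgcccCGg
Entry (GCCC)n: gccCGccc
Entry (CCGC)n: cCGccCGc
Entry (GCGACGC)n: gCGaCGCGCGaCGc
Entry (CCGCCTG)n: cCGcctgcCGcctg
Entry (CCGAGGC)n: cCGaggccCGaggc
Entry (CATCGT)n: catCGtcatCGt
Entry (TCATCG)n: tcatCGtcatCG
Entry (GCCCAGC)n: gcccagCGcccagc
Entry (CAACCG)n: caacCGcaacCG
Entry (GAGTAC)n: gagtaCGagtac
Entry (GGGGCC)n: ggggcCGgggcc
Entry (GGCCC)n: ggccCGgccc
Entry (GGCCG)n: ggcCGggcCG
Entry (GGCACCCC)n: ggcacccCGgcacccc
Entry (CTCGCC)n: ctCGccctCGcc
The CpG lies only at the junction in (GCCC)n and (GCCCAGC)n, as well as in (GAGTAC)n and (GGGGCC)n, and further in (GGCCC)n and (GGCACCCC)n. (GGCCC)n and (GGCCG)n describe opposite strands of the same kind of tract, and (CATCGT)n and (TCATCG)n the same kind of tract read from another base.

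Among the 1109 entries, 857 have 1 CpG per unit, 223 have 2 and 29 have 3. The CpG arises only at the junction in 139. Units of 6 bases make up 403 entries and units of 7 to 9 bases 544. In 193 the unit holds only G and C, in 645 the GC share is from 75% to under 100%, and in 271 it is from 50% to under 75%. More C than G stands in 558 units and more G than C in 377.

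Library totals over all repeat entries ran from 11520770 to 38312112 reads, with the largest in RSeT replicate 1. After a filter on low counts, 778 of the 1109 entries were tested among 4665 entries of all kinds. The remaining 331 had a median of 0.216 CPM (reads on an entry, scaled to the library's summed reads on listed repeat entries) and a highest mean of 0.668 CPM. Tested entries ranged from 0.346 to 607.4 CPM with a median of 4.85 CPM. The 10 most abundant held 16.9% of the summed level. Each value sums the reads on all genomic copies of a unit, so a level reflects how many copies there are and how long they are as well as how strongly each is transcribed, and no single genomic position belongs to an entry. In bulk RNA, fewer cells with a transcript and less of it per cell cannot be told apart. Gene-level markers of pluripotency were not analysed here. HERVH-int, an endogenous retrovirus active in human pluripotent cells, was present in every library, at 23829 and 26519 CPM in primed cells, 73442 and 75615 in RSeT and 118627 and 114855 in RSeT+DT.

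Summed over the 1109 entries, CpG repeats were lowest in RSeT and stood near the primed level in RSeT+DT. They took 1.27% and 1.30% of all repeat reads in the primed libraries, 0.999% and 0.971% in RSeT, and 1.28% and 1.27% in RSeT+DT. Both RSeT libraries lay below the other 4, and both RSeT+DT libraries lay within the primed range. The group means were 1.29% ± 0.020 (SD, n = 2), 0.985% ± 0.020 and 1.27% ± 0.0011. With 2 libraries against 2, an exact permutation test cannot go below p = 0.33, so no test was made on these sums.

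The denominator matters, because the share of small and ribosomal RNA entries moved in the same way, at 27.5% and 24.5% in primed cells, 18.6% and 17.6% in RSeT and 26.7% and 25.2% in RSeT+DT. With those entries left out of the denominator, CpG repeats took 1.76% and 1.72% in primed cells, 1.23% and 1.18% in RSeT, and 1.74% and 1.70% in RSeT+DT, so RSeT stayed lowest and the gap to the other groups was wider. As a percentage of simple repeat reads only, CpG repeats took 13.5% and 13.4% in primed cells, 12.5% and 12.3% in RSeT, and 13.8% and 14.0% in RSeT+DT. RSeT was again the lowest group, and RSeT+DT now lay above primed without overlap. GC-rich simple repeats without a CpG behaved otherwise on this scale, at 23.8% and 23.8%, then 21.7% and 22.2%, then 21.9% and 21.9%. Their RSeT+DT libraries lay within the RSeT range, not above it. Of all repeat reads, units of 1 to 3 bases took 4.49% and 4.67% in primed cells, 3.87% and 3.80% in RSeT and 4.50% and 4.42% in RSeT+DT, the same order of groups as the CpG repeats.

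**Figure D1:**
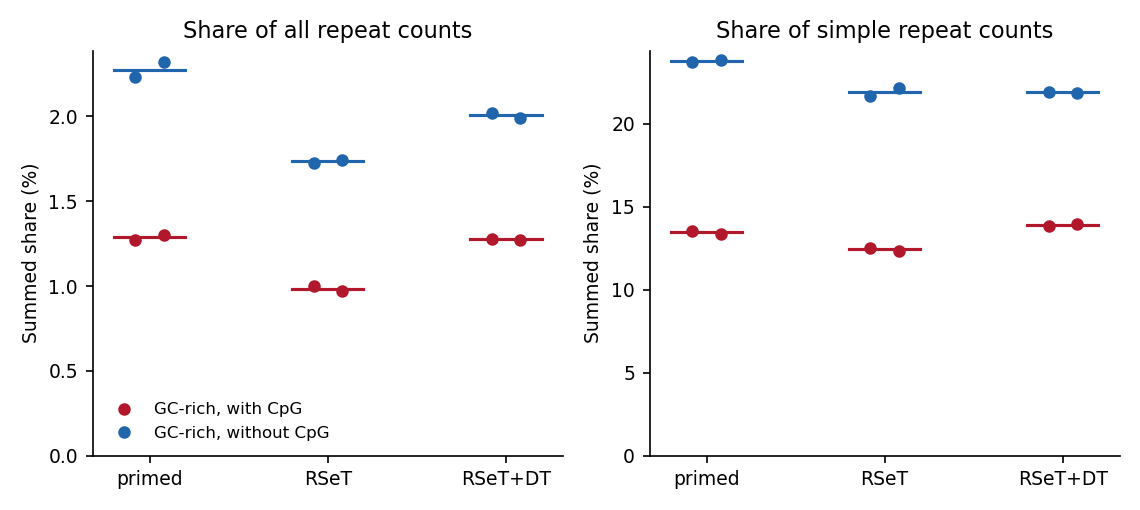
Summed share of reads (%, vertical axes from 0) taken by GC-rich simple repeats with and without a CpG, in percent of all repeat reads and of simple repeat reads. Points are the 2 libraries of each group and bars their means; the share with CpG is lowest in RSeT on both scales (0.985% of all repeat reads and 12.4% of simple repeat reads).

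Between primed cells and RSeT, far more CpG repeats fell than rose. By edgeR's quasi-likelihood test at an adjusted p under 0.05, 317 of 778 were lower in RSeT, 65 were higher and 396 did not pass. Over all tested entries 46.6% passed, 23.8% lower and 22.8% higher, and over all tested simple repeats 41.9% passed, 29.2% lower and 12.7% higher. The median log2 fold change of the 778 was -0.30, against -0.16 for all simple repeats and -0.03 for all entries. GC-rich simple repeats without CpG had nearly the same median, -0.32, with 507 lower and 120 higher of 1377. Scaling on simple repeats alone gave 220 lower and 98 higher with a median of -0.13, so the excess of falls shrinks when other simple repeats serve as the reference. Fitted changes use edgeR's TMM factors, which rescale the library totals, whereas CPM do not, so a fitted change can differ from the ratio of CPM. For RSeT+DT against RSeT, the median of all entries was 0.03 in the fit and -0.13 on library totals. For RSeT+DT against primed it was -0.01 and -0.29.

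Changes of single entries are given for those with a mean count of at least 50 that passed without overlap. Sparser entries had larger fitted changes, down to -4.79 on the log2 scale between primed and RSeT, from fewer reads. For entries named by this rule, the lack of overlap was required and adds no support. Groups did not overlap in 73.7% of all 4665 tested entries for RSeT against primed. The share was 70.8% for RSeT+DT against RSeT and 74.7% for RSeT+DT against primed. Among the 778 CpG repeats the shares were 80.5%, 70.2% and 72.5%. Of the entries so chosen, (GCCCAGC)n had the largest fall in RSeT. It stood at 88.1 and 93.1 CPM in primed cells, 9.68 and 8.90 in RSeT, and 12.5 and 11.7 in RSeT+DT. Both naive-like groups lay far below the primed libraries, with no overlap. The log2 fold change from primed to RSeT was -3.13 (SE 0.080, edgeR adjusted p = 4.58e-21). With DZNep and TSA it rose by 0.52, which did not pass when scaled on simple repeats (0.27).

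(CAACCG)n went from 48.9 and 45.9 CPM to 5.56 and 5.06 in RSeT and 5.44 and 5.47 in RSeT+DT. (GAGTAC)n went from 28.9 and 27.5 CPM to 3.55 and 3.78, and then 3.06 and 3.73. In both, the RSeT+DT libraries stayed with the RSeT libraries, at log2 differences of 0.17 and 0.05 that did not pass. Their fitted changes from primed to RSeT were -3.01 and -2.82. (CAACCG)n and (GAGTAC)n have no perfect run of at least 16 bases in any spliced GENCODE 29 transcript. That search does not cover introns or imperfect tracts. Of 51 named entries searched, 46 had a run in at least 1 gene.

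Other large falls had lower levels. (GCGCCCGC)n fell by 2.96 on the log2 scale, (GTCCG)n by 2.69, (CGAGGC)n by 2.43, (TGTGCG)n by 2.37 and (GCGAGG)n by 2.26. Their primed levels ran from 6.82 to 22.1 CPM and their RSeT levels from 0.814 to 4.02 CPM. Of these 5, (CGAGGC)n alone rose clearly under DZNep and TSA, from 4.02 and 3.20 to 5.28 and 7.81 CPM (log2 fold change 0.95). (GCGAGG)n passed narrowly at 0.50 (edgeR adjusted p = 0.0419) and lost the call under most alternatives, while the other 3 did not pass.

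The largest rises among entries of that count started from near zero. (GCGACGC)n had 2 and 1 reads in the primed libraries, 272 and 139 in RSeT and 60 and 63 in RSeT+DT, which is 0.119 and 0.0734 CPM, then 7.10 and 8.09, then 4.59 and 5.47. RSeT libraries were the highest and primed ones nearly empty. The ratio of RSeT to primed, corrected for library totals, was 75.2-fold, with an exact 95% counting interval of 25.6 to 366.2. Such intervals cover counting error only.

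(CCGCCTG)n had 3 reads in each primed library, at 0.178 and 0.220 CPM, and then 5.12 and 4.89 CPM in RSeT and 5.36 and 5.12 in RSeT+DT. Its ratio of RSeT to primed was 25.6-fold, with an interval of 11.6 to 70.4. The RSeT and RSeT+DT libraries nearly met, and the log2 difference between them, 0.22 (SE 0.189), did not pass.

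(CCGAGGC)n rose in both steps. It stood at 3.03 and 1.91 CPM in primed cells, 11.9 and 10.3 in RSeT and 25.4 and 28.2 in RSeT+DT. The 3 groups did not overlap, and the log2 fold changes were 2.28 (SE 0.181) for RSeT against primed and 1.41 (SE 0.122) for RSeT+DT against RSeT, with edgeR adjusted p of 8.60e-11 and 1.10e-09. (GGCCGCC)n went the other way in the second step, from 0.475 and 0.367 CPM to 7.47 and 7.85 and back to 4.90 and 4.08. The rise of 4.27 on the log2 scale passed, and the later decrease of -0.60 did not pass without RSeT+DT replicate 2 (-0.45). From primed to RSeT, (GGCGAGC)n rose by 1.94, (GGACG)n by 1.91 and (GCGCACG)n by 1.77.

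**Figure D2:**
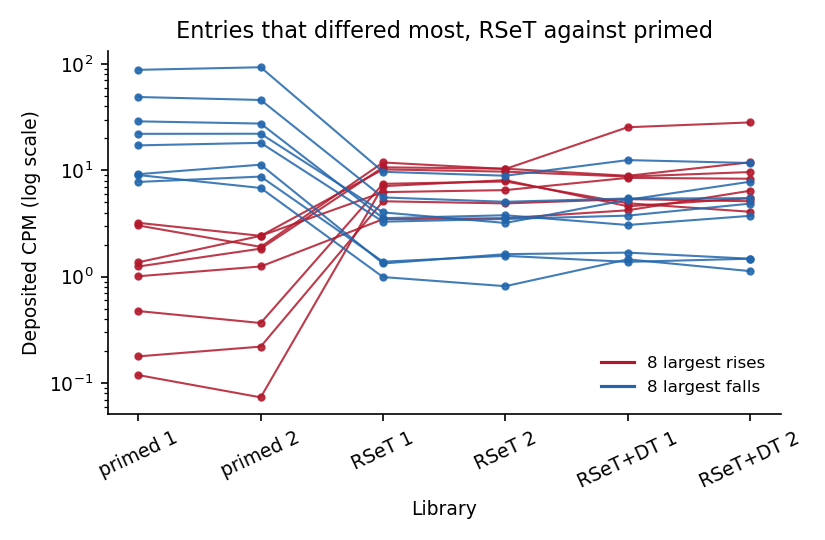
CPM on a log axis in each of the 6 libraries for the entries of at least 50 reads on average with the largest rises and falls between primed and RSeT. Rising entries start at or below 3.21 CPM in primed cells, and the falling ones end between 0.814 and 9.68 CPM in RSeT, with the RSeT+DT libraries mostly beside the RSeT ones.

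CpG repeats were broadly higher with DZNep and TSA than in RSeT alone. Of the 778, 412 were higher in RSeT+DT than in RSeT by edgeR's quasi-likelihood test at an adjusted p under 0.05, 10 were lower and 356 did not pass. Among all tested entries 42.4% passed, 25.1% higher and 17.4% lower, and among all simple repeats 36.4% passed, 31.7% higher and 4.72% lower. The median log2 fold change was 0.51, against 0.21 for all simple repeats, 0.03 for all entries and 0.24 for the 1377 GC-rich repeats without CpG, of which 459 were higher and 54 lower. Units of 1 to 3 bases had a larger share of rises, 57 of 80 (71.2%), with a smaller median of 0.36. The rises were mostly modest: with a minimum change of 2-fold in the test, edgeR's glmTreat called 0 entries higher and 1 lower, with 29 higher at an unadjusted p under 0.05. Restricting the members to the 488 with a mean count of at least 50 gave 360 higher and 6 lower. The shares above include sparser entries and are no background for this count. Shares over all entries at the same mean count are not given here.

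The scale of this shift depended on the reference, and its direction did not in any scaling tried. The median was 0.72 when scaled on interspersed repeats, 0.35 on library totals and 0.26 on simple repeats, where 265 were higher and 21 lower. The gap in median between the CpG repeats and GC-rich repeats without CpG was 0.26, and ran from 0.18 to 0.29 over the settings tried.

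**Figure D3:**
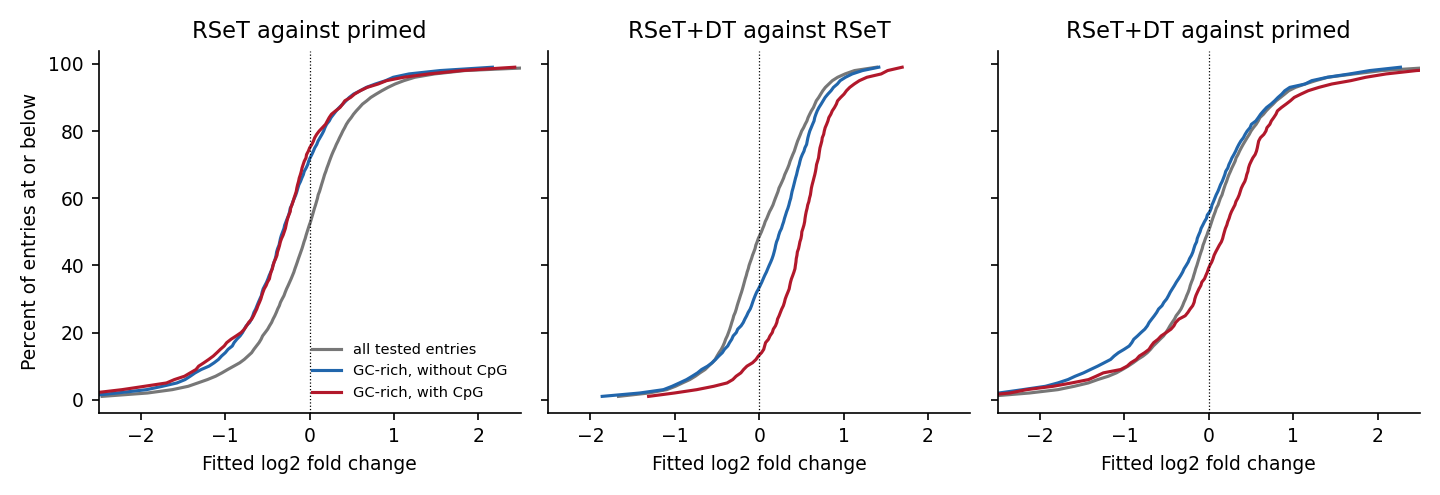
Distributions of fitted log2 fold changes (horizontal axis) in the 3 comparisons for GC-rich simple repeats with CpG, GC-rich simple repeats without CpG and all tested entries. For RSeT+DT against RSeT the CpG repeats centre at 0.51, the GC-rich repeats without CpG at 0.24 and all entries at 0.03.

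Of the 10 most abundant CpG repeats, 9 rose with DZNep and TSA. (CCCCGG)n, the most abundant, stood at 592.0 and 595.9 CPM in primed cells, 509.9 and 470.1 in RSeT and 739.3 and 737.3 in RSeT+DT. RSeT was lowest and RSeT+DT highest, with no overlap. The log2 fold change from RSeT to RSeT+DT was 0.74 (SE 0.0475, edgeR adjusted p = 5.71e-12). The step from primed to RSeT was -0.14, which did not pass without primed replicate 1 (-0.12) or RSeT replicate 2 (-0.06) and was 0.03 when scaled on simple repeats.

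(GCCC)n ran at 314 and 321 CPM in primed cells, 253 and 249 in RSeT and 355 and 357 in RSeT+DT, in the same order as (CCCCGG)n. The entry (CCGC)n, a unit of the same family on the same strand class, had 232 and 237, then 141 and 138, then 174 and 169 CPM. It rose from RSeT by 0.45 and stayed below the primed libraries, whereas (GCCC)n rose by 0.66 and passed above them.

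(CCGGGG)n and (CCCGCC)n rose by 0.87 and 0.69, (GCCCC)n by 0.53, (GGCTGC)n by 0.34 and (TCATCG)n by 0.30. (GCTACG)n rose by 0.23, but gave -0.02 when scaled on simple repeats and did not pass without RSeT replicate 1 (0.21) or RSeT+DT replicate 1 (0.07). (GCTCCC)n was the exception. Its CPM were 115.2 and 115.1 in RSeT and lower, 110.1 and 105.1, in RSeT+DT. The fit with TMM factors gave a change of 0.06 (edgeR adjusted p = 0.368), which did not pass.

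Among entries with a mean count of at least 50, the steepest rises had at most 28.2 CPM in RSeT+DT. (GCTCGG)n had 4.22 and 4.26 CPM in primed cells, 1.44 and 1.45 in RSeT and 4.21 and 4.86 in RSeT+DT, so it fell by 1.42 on the log2 scale and rose by 1.80, near its primed level. (GGTACC)n rose by 1.58 from 2.95 and 2.79 to 6.97 and 8.68 CPM, above its primed 6.41 and 6.24. (GCGGGGCTG)n rose by 1.38 from 1.70 and 1.51 to 3.67 and 3.99 CPM, below its primed 5.40 and 4.33.

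Rises between these were 1.58 in (CGCACCC)n, 1.49 in (CCCGCAG)n and 1.41 in (CCGGCGC)n. The entry (CTCGCC)n had the largest fitted rise at a mean count of at least 50, 1.86, against 3.28 over all 778, but its RSeT libraries disagreed, at 3.16 and 0.465 CPM from 121 and 8 reads. Against 7.04 and 7.20 CPM in RSeT+DT, the fitted rise was 4.08 without RSeT replicate 1 and 1.32 without RSeT replicate 2, and DESeq2 did not call it (adjusted p = 0.0709).

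Falls under DZNep and TSA were few, and 6 met the rule for naming. (GGCACCCC)n was the largest, with 2.38 and 3.23 CPM in primed cells, 4.20 and 2.68 in RSeT and 0.383 and 0.434 in RSeT+DT. Both RSeT+DT libraries lay below all 4 others. The reads numbered 161 and 46 in RSeT and 5 and 5 in RSeT+DT, a ratio of 9.17-fold (exact 95% counting interval 4.89 to 19.4). It was the fall that passed the 2-fold test, with a log2 fold change of -2.97 (SE 0.399, edgeR adjusted p = 1.02e-06). Its unit has no perfect run of 16 bases in a spliced GENCODE 29 transcript, a search that does not cover introns.

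(GGCCC)n and (GGCCG)n, which describe opposite strands of the same kind of tract, fell together. (GGCCC)n had 38.0 and 42.3 CPM in primed cells, 79.1 and 84.1 in RSeT and 53.9 and 51.6 in RSeT+DT. (GGCCG)n had 35.1 and 43.2, then 69.1 and 75.4, then 52.1 and 53.3 CPM. Both were highest in RSeT and intermediate in RSeT+DT, with log2 changes of 1.15 and 1.02 into RSeT and -0.47 and -0.29 with the compounds, the last of which did not pass when scaled on interspersed repeats (-0.07). The other 6 tested names of their family, which start at other bases of that unit, rose with the compounds by 0.41 to 0.81. (GGCCGT)n and (TGCGGC)n gave -0.40 and -0.31, and neither passed when any of the 4 RSeT and RSeT+DT libraries was left out.

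Against primed cells, RSeT+DT had more CpG repeats above than below under the main scaling, and this split turned with the scaling. By edgeR's test 275 of 778 were higher and 116 lower at an adjusted p under 0.05, with a median log2 fold change of 0.19. Over all tested entries 45.8% passed, 25.1% higher and 20.6% lower, and over all simple repeats 41.3% passed, 25.1% higher and 16.2% lower. Scaled on library totals, 150 were higher and 212 lower with a median of -0.10, and limma on log2 of CPM plus 1 gave 153 higher and 232 lower. GC-rich repeats without CpG had 284 higher and 308 lower of 1377 and a median of -0.10 under the main scaling. The 3 comparisons share libraries, so their values are set side by side and not counted as independent.

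Over the 778, fitted changes from primed to RSeT+DT ran from -4.22 to 7.55. At a mean count of at least 50, several of the entries farthest from primed were named above for RSeT. (GCGACGC)n stood 50.8-fold (95% counting interval 17.0 to 249.8) above primed in RSeT+DT and (CCGCCTG)n 26.6-fold (11.9 to 73.9). (CCGAGGC)n was 3.69 higher on the log2 scale, (GGCCGCC)n 3.66, (CATCGT)n 3.05, (GCGAGCG)n 2.64, (AAGCGG)n 2.59 and (GCGCACG)n 2.51. (CAACCG)n fell by 2.83, (GAGTAC)n by 2.77, (GCCCAGC)n by 2.61, (GGCACCCC)n by 2.46, (GTCCG)n by 2.39 and (GCCCCTC)n by 2.15. Among these, (GCGAGCG)n climbed at each step, from 3.92 and 3.82 CPM to 11.0 and 8.44 and to 20.2 and 19.4, whereas (GGCACCCC)n gave 0.51 from primed to RSeT, which did not pass, and -2.97 with the compounds.

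How far a CpG repeat rose with DZNep and TSA went with its GC share. Units of 50% to under 75% GC had a median log2 fold change of 0.36 (53 higher and 0 lower of 144), those of 75% to under 100% GC 0.50 (232 and 7 of 457), and those of only G and C 0.62 (127 and 3 of 177). The order of the 3 medians was the same in all 4 other scalings tried. GC-rich repeats without CpG gave 0.23 and 0.29 in the first 2 ranges. In the step from primed to RSeT the 3 medians of the CpG repeats were -0.36, -0.30 and -0.30, and in RSeT+DT against primed they were 0.05, 0.18 and 0.29.

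Across the 778 entries, Spearman's rho between the log2 fold change of RSeT+DT against RSeT and the GC share was 0.18. It was 0.41 over all 3350 tested simple repeats with units of at least 4 bases, which share the libraries and may share host transcripts. Over those 3350, rho was -0.30 for RSeT against primed and 0.03 for RSeT+DT against primed. Over the 778 it was 0.02 and 0.11 in those 2 comparisons. These are descriptions across entries, which are not independent replicates.

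A CpG cannot occur in a unit without enough G and C, so entries with and without it were also set side by side at the same unit length and GC share. Strata with few entries on a side were left out, and those kept had at least 19 with CpG and 32 without. Units of only G and C, 177 with CpG and 2 without, are not covered. In the 7 strata kept, holding 553 entries with CpG and 939 without, the median with CpG was above the one without in 7 of 7 for RSeT+DT against RSeT, by 0.02 to 0.31. At 7 bases and 85.7% GC the medians were 0.47 over 161 entries with CpG and 0.16 over 40 without. At 6 bases and 66.7% GC they were 0.40 over 69 and 0.38 over 268, nearly the same. For RSeT+DT against primed the median with CpG was higher in 7 of 7 by 0.05 to 0.43, and for RSeT against primed in 5 of 7, with gaps from -0.13 to 0.12. No test was made of these medians.

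**Figure D4:**
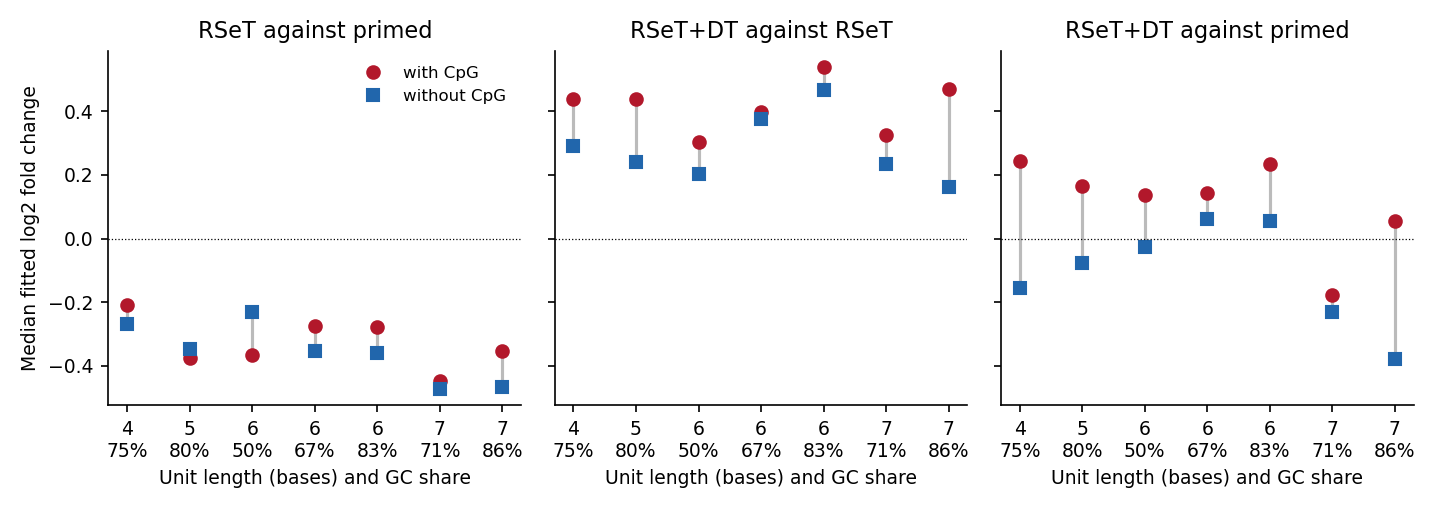
Median fitted log2 fold change (vertical axis) of simple repeats with and without CpG in 7 strata of equal unit length (bases) and GC share, for the 3 comparisons. With the compounds against RSeT, the points with CpG lie 0.02 to 0.31 above those without in 7 of 7 strata.

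In the step from RSeT to RSeT+DT, medians differed little with the number and place of the CpG sites. With DZNep and TSA, units with 1 CpG had a median of 0.49 (302 higher and 9 lower of 585), with 2 a median of 0.57 (100 and 1 of 171) and with 3 a median of 0.50 (10 and 0 of 22). Units whose CpG lies only at the junction had 0.44 (50 and 3 of 100), against 0.51 (362 and 7 of 678) for a CpG inside the unit. The string CGCG was present in 114 tested entries, with a median of 0.62 and 67 higher and 0 lower. The 664 without it had a median of 0.49, with 345 higher and 10 lower. Strand composition hardly separated the entries in this step: units with more C had 0.51 and units with more G 0.52. The other comparisons had wider gaps by number and place of the CpG. For RSeT+DT against primed, units with 1, 2 and 3 CpG had medians of 0.15, 0.33 and 0.20. A CpG only at the junction had 0.01, against 0.20 inside the unit. From primed to RSeT the medians were -0.34, -0.23 and -0.21 by number, and -0.41 against -0.29 by place.

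Names that are rotations or reverse complements of a unit describe the same kind of tract, and they were gathered into 230 families with a tested entry, of which 95 have at least 3. Members of a family did not always move alike. From primed to RSeT, 54 of the 95 families had falls and no rise, 6 had rises and no fall, 32 had both and 3 had neither, and the median range within a family was 1.72 on the log2 scale. With DZNep and TSA, 80 had rises and no fall, 1 had falls only, 7 had both and 7 had neither, with a median range of 1.06. For RSeT+DT against primed the numbers were 30, 13, 46 and 6.

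In 81 families both a C-rich and a G-rich strand were tested, and the C-rich strand had the higher summed CPM in 51. With the compounds the median of both strands lay above 0 in 69 of the 81 families, below 0 in 0, and on opposite sides in 12. From primed to RSeT both lay below 0 in 60, above in 4 and on opposite sides in 17. Summed over the tested entries of these 81 families, C-rich units stood at 6588 and 6721 CPM in primed cells, 5118 and 4960 in RSeT and 6659 and 6624 in RSeT+DT. G-rich units stood at 4206 and 4310, then 3399 and 3301, then 4230 and 4242 CPM. The 2 strand classes thus kept the same order of groups, with RSeT lowest. The kit keeps strand, but how strand was used in counting is not given in the sources used here.

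**Figure D5:**
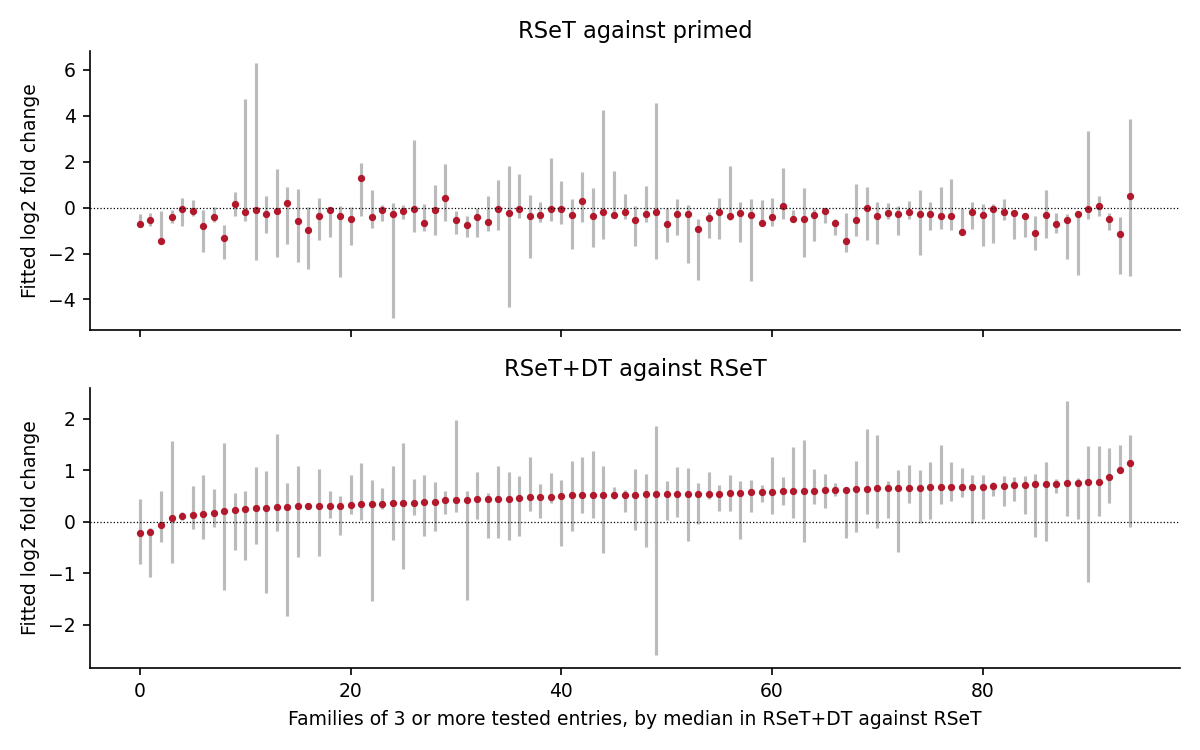
Fitted log2 fold changes in the 95 families of equivalent units with at least 3 tested entries, for RSeT against primed and RSeT+DT against RSeT. Families are ordered along the horizontal axis by their median in RSeT+DT against RSeT. Dots are family medians and grey lines run from the lowest to the highest entry. The lines are shorter for RSeT+DT against RSeT (median range 1.06) than for RSeT against primed (1.72).

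The family of GGGGCC was examined because an intronic tract of this unit in the gene C9orf72, when expanded, causes amyotrophic lateral sclerosis and frontotemporal dementia. The values here sum all genomic tracts and say nothing of that locus. Summed over 12 tested names the family stood at 1170 and 1165 CPM in primed cells, 949.0 and 897.8 in RSeT and 1357 and 1351 in RSeT+DT. With the compounds 11 of 12 rose, and from primed to RSeT 7 fell and 0 rose, a count that became 3 and 1 when scaled on simple repeats. Against primed, 9 were higher in RSeT+DT and 2 lower, or 5 and 2 on library totals.

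The name (GGGGCC)n itself was the exception. It had 1.96 and 1.76 CPM in primed cells, 0.809 and 0.640 in RSeT and 0.306 and 0.608 in RSeT+DT, from 33, 24, 31, 11, 4 and 7 reads. Primed libraries were highest, and the naive-like groups did not overlap each other but rested on few reads. The fall of 1.18 on the log2 scale from primed to RSeT did not pass without primed replicate 1 or RSeT replicate 2, and the further difference of -0.58 did not pass. (GGCCCC)n, its reverse complement, had 75.5 and 72.6 CPM, then 33.4 and 32.6, then 44.9 and 47.0. It had the largest fall of the family's abundant names, -1.03, and rose by 0.63 with the compounds.

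The 4-base family of CCCG fell as a whole in RSeT and rose with the compounds. All 8 tested names fell from primed to RSeT, and 7 of the 8 rose with DZNep and TSA. The log2 changes into RSeT ran from -0.21 in (GCCC)n to -1.31 in (GGGC)n, which was also the name whose change with the compounds, 0.46, did not pass. When scaled on simple repeats 7 fell and 7 rose. Against primed, 2 were higher in RSeT+DT and 2 lower, or 1 and 5 on library totals.

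Other families held names that did not move together. (CATCGT)n went from 1.25 and 1.83 CPM in primed cells to 10.7 and 10.4 in RSeT and 8.88 and 11.9 in RSeT+DT. (TCATCG)n, the same kind of tract read from another base, had 121.4 and 121.4, then 102.0 and 105.2 CPM in those first 2 groups, a difference of -0.10 that did not pass. (GACGG)n and (GGACG)n rose from primed to RSeT by 1.75 and 1.91, while (CCGTC)n and (CGTCC)n, names on the other strand of their family, fell by 0.58 and 0.55. The family was not split by strand, since (CCCGT)n and (GTCCC)n, on the strand of the names that fell, rose by 0.42 and 0.58. How reads were divided between such equivalent names was not tested.

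Perfect runs of at least 16 bases of a unit, in any phase and on either strand, were searched in 35116 RefSeq promoter windows of GRCh38.p14, from 250 bases before to 50 bases after a gene's start. Of the 1109 CpG repeats, 750 (67.6%) belong to a family with a run in at least 1 window. This compares with 53.3% of 2250 GC-rich repeats without CpG and 25.9% of 2666 AT-rich repeats without CpG. Equivalent names share each match, so these shares count a family once per name. Counted by family, 159 of 331 (48.0%), 191 of 514 (37.2%) and 116 of 680 (17.1%) had a run. Runs of the CpG families occurred in 1076 windows, 3.06% of all. The family of (GCCCC)n was found in 207 windows (0.589%) and that of (CCCCGG)n in 34 (0.0968%). A run is a match of letters and does not show that the tract is transcribed.

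With DZNep and TSA, the 567 tested entries whose family has a promoter run had a median log2 fold change of 0.54, with 326 higher and 7 lower. The 211 without one had 0.43, with 86 higher and 3 lower. From primed to RSeT the medians were -0.31 and -0.27. Both sets thus shifted the same way, and the abundance and GC share of the 2 sets were not matched.

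The entries at the edges of the rule were few. At exactly 50% GC, 31 entries qualified and 20 were tested, with medians of -0.39, 0.31 and 0.13 for RSeT against primed, RSeT+DT against RSeT and RSeT+DT against primed. Just under 50%, 10 repeats with a CpG were listed and 3 tested, with medians of 1.07, -0.42 and 0.65.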

How the data were processed

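Total RNA from 6 libraries was analysed. Per the submitters' processing notes, reads were trimmed with Trimmomatic 0.39, aligned with STAR 2.7.8a to GRCh38 (hg38) and counted with featureCounts (Subread 2.14.2 is also named); for the repeat annotation, strand setting and multi-mapping reads, nothing is given in the sources used here. The authors deposited raw counts per repeat entry and a CPM table of the entries with at least 10 reads, in which each value is the count scaled to the library's summed listed counts.

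The deposited counts were fitted with edgeR 4.0.16 (R 4.3.3; TMM factors, filterByExpr, glmQLFit and glmQLFTest over all 6 libraries), with Benjamini-Hochberg adjustment over 4665 entries; "passed" means an adjusted p under 0.05. Scripts were tested on simulated data. Alternatives used DESeq2 1.42.0, limma 3.58.1 on log2 CPM, other scalings and filters, a replicate block and each library left out. Members and lists were chosen with earlier results of these data known. Entries named were, per comparison, the 8 largest rises and falls that passed, with a mean count of at least 50 and no overlap between groups, plus the 10 most abundant, the GGGGCC family and examples from families with at least 3 tested names. Libraries of a group differed by more than sampling noise (chi-square per degree of freedom 6.04 to 31.0).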

Additional observations from a re-analysis of the deposited data

How the results depend on the processing

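Each comparison was refitted under 18 alternatives. For RSeT against primed the median log2 fold change of the CpG repeats (-0.30) was -0.43 on library totals, -0.46 scaled on interspersed repeats, -0.13 scaled on simple repeats, -0.34 by limma on log2 of CPM plus 1 and -0.43 with 0.1 added. For RSeT+DT against RSeT (0.51) it was 0.46 with RLE factors, 0.35 on library totals, 0.72 on interspersed repeats, 0.26 on simple repeats, 0.44 with no filter, and 0.28 and 0.35 by limma. For RSeT+DT against primed (0.19) it was -0.10 on library totals, 0.24 on interspersed repeats, 0.11 on simple repeats, 0.12 with no filter, and -0.083 and -0.10 by limma. The fit with no filter also took in entries not tested in the main fit. Over the entries of the main fit it gave 0.46 for RSeT+DT against RSeT and 0.16 for RSeT+DT against primed. The median of all entries, -0.03, 0.03 and -0.01 in the 3 comparisons, was -0.16, -0.13 and -0.29 on library totals, -0.19, 0.25 and 0.05 on interspersed repeats, and 0.14, -0.22 and -0.09 on simple repeats.

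Counts of calls moved by over 1.5 times in these cases. RSeT+DT against primed had 150 higher and 212 lower on library totals, 153 and 232 by limma with 1 added, and 150 and 217 with 0.1 added. RSeT+DT against RSeT had 5 lower on interspersed repeats, 265 higher and 21 lower on simple repeats, and 3 lower by DESeq2. RSeT against primed had 98 higher on simple repeats. A 2-fold minimum change left 15 higher and 38 lower for RSeT against primed, 0 and 1 for RSeT+DT against RSeT, and 30 and 24 for RSeT+DT against primed.

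The log2 ratio of the summed share was -0.11, 0.16 and 0.048 over simple repeat reads and -0.53 and 0.52 for the first 2 comparisons without small and ribosomal RNA. Leaving out a library gave -0.41 to -0.36, 0.35 to 0.39 and -0.029 to 0.0030, the last without primed replicate 2.

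With a library left out, medians ran from -0.34 to -0.29, 0.47 to 0.55 and 0.16 to 0.19. Over the entries of the main fit they ran from -0.33 to -0.27, 0.48 to 0.55 and 0.18 to 0.22. Counts ran from 45 to 74 higher and 246 to 335 lower, 320 to 418 higher and 6 to 11 lower, and 229 to 278 higher and 86 to 116 lower.

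Single entries reversed as follows: on library totals and by limma with 1 and 0.1 added, (GCCCC)n in RSeT+DT against primed gave -0.053, -0.056 and -0.056 and (TCATCG)n gave -0.082, -0.082 and -0.083. Scaled on simple repeats, (CCCCGG)n gave 0.028 and (CCCGCC)n 0.14 in RSeT against primed, and (GCTACG)n -0.023 and (GCTCCC)n -0.19 in RSeT+DT against RSeT. Over all named entries, comparisons and alternatives, 2472 values kept direction and call, 200 lost the call, 65 gained it and 10 reversed. The causes were not tested.

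Libraries with the same replicate number did not vary together (correlations of 0.0006, -0.041 and 0.049). A replicate block gave 66 higher and 317 lower, 408 and 11, and 276 and 116. With 2 libraries a group, entries of a few reads, such as (GGGGCC)n, are limited by counting error.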
